A study of Drosophila melanogaster with 2 samples.

Results

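The near intronic peaks of CG32532 are the binding sites that lay inside introns at a short distance from a gene start. The CG32532 gene lies on X and is predicted to encode a homeodomain protein of the paired class. Binding was mapped by chromatin immunoprecipitation and sequencing (ChIP-seq) in whole Drosophila embryos. A near intronic peak had its summit inside a gene body but in no exon, more than 500 bp from every annotated transcription start site (TSS) and at most 5000 bp from the nearest protein-coding TSS. Of the 5325 peaks of the replicated set, which rests on both replicates, 1084 (20.4%) met these limits. The embryos were 8 to 24 h old, per the labels' source name (a separate age field that disagrees was not used), and came from transgenic flies expressing CG32532 fused to eGFP, and an antibody against GFP pulled the fusion protein down. Chromatin was sonicated to 200 to 800 bp. The series has 1 group with 2 biological replicates, so the only comparison of samples is that of replicate 1 with replicate 2. Whole embryos mix many tissues, the labels name no tissue in which the fusion is expressed, and a control named in the labels was not analysed here. Library depth is unknown, because the peak lists hold no counts of reads.

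Homeodomain proteins contact DNA through a helix that reads TAAT-type sequences, and paired-class members can also bind as dimers on palindromes of that core. In the fly, many enhancers lie in introns, often in the long first intron just downstream of the promoter, where they act on their host gene or on a neighbour. Binding in an intron does not by itself show that the gene is regulated. A peak is named here by the protein-coding gene with the nearest TSS.

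The sequence under the strongest summits was rich in A and T. Shown are 6 of the 8 near intronic peaks with the highest mean signal in the replicates, and the peak in CG32532 itself. The results on base composition turn on such summits. Each stretch is centred on the summit of a peak, is read on the plus strand of dm6 and is credited to RefSeq's assembly. Capitals mark the longest run of A and T alone, or the first of these where runs of equal length occur.
CG11050, chr2L:6612650-6612769, plus strand: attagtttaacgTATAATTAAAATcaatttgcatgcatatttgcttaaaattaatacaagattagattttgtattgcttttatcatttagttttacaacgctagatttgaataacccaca
CG32772, chrX:4910302-4910421, plus strand: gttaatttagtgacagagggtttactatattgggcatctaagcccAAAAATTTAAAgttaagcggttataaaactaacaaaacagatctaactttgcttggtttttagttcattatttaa
CG9663, chr2L:3302125-3302244, plus strand: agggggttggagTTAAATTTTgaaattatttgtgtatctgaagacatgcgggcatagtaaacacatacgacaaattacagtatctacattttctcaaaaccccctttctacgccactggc
CG9663, chr2L:3302327-3302446, plus strand: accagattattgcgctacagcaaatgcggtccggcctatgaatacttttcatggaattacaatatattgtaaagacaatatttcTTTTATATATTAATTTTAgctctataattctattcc
Tlk, chrX:3742154-3742273, plus strand: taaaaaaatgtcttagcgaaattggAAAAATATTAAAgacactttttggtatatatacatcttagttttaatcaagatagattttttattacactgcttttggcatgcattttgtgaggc
Trl, chr3L:14759441-14759560, plus strand: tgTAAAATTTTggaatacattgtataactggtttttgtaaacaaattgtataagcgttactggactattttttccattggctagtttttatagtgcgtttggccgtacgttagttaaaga
CG32532, chrX:19546884-19547003, plus strand: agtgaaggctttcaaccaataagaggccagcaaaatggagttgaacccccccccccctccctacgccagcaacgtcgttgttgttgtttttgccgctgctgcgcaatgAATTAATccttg
The peak of CG11050 had 23.3% G+C over these 120 bp and that of Tlk 26.7%, while the peak in CG32532 had 51.7%. The second summit of CG9663 had the longest of these A and T runs, at 18 bp. That summit shares its peak in each replicate with the first, and its own pooled signal ranked only 219 in the replicated set. Of the 6 strong peaks, the one with most G+C was the first summit of CG9663, at 39.2%.

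A second set shows a 6-letter word that was more frequent at near intronic summits than in the rest of the same intron space. Printed over 200 bp are 4 of the 14 strongest near intronic peaks, which hold this word within 100 bp of the summit. They were chosen after their values were seen. Capitals mark ACAGTG or its reverse complement CACTGT.
norpA, chrX:4324884-4325083, plus strand: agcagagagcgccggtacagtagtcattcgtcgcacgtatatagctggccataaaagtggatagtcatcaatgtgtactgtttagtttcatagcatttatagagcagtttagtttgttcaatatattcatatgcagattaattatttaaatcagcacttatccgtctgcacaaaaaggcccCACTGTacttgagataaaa
CHES-1-like, chrX:7706896-7707095, plus strand: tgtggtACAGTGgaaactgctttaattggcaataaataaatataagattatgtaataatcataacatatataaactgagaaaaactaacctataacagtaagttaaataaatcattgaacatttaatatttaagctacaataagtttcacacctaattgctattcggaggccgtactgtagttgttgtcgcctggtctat
NFAT, chrX:13640419-13640618, plus strand: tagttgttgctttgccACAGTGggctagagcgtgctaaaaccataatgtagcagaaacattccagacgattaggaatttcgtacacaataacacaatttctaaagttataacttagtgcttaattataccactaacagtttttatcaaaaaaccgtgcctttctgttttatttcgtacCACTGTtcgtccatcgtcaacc
MYPT-75D, chr3L:18640609-18640808, plus strand: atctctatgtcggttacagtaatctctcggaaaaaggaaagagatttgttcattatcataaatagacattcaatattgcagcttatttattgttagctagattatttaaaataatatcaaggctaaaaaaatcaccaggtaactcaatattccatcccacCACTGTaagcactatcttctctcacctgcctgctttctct
The word lay 84 bp to the right of the summit in norpA, 91 bp to the left in CHES-1-like and 63 bp to the right in MYPT-75D. NFAT had it 81 bp away on both sides. Each match on the left reads ACAGTG on the plus strand and each on the right reads CACTGT.

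Near intronic peaks ranged widely in signal. The signal of a peak in each replicate was divided by that replicate's median over the replicated peaks (67.7 in replicate 1 and 116 in replicate 2), and multiples of the median peak are means ± SD of both replicates (n = 2). The strongest was in CG11050 (2L, summit 6612710, 1023 bp downstream of the TSS), with signals of 1687 in replicate 1 and 2800 in replicate 2, or 24.5 ± 0.56 times the median peak. Its summit lay in an intron of 140 bp that was not a first intron and was shorter than the peak (6612500 to 6612979). The next was in CG32772 (X, summit 4910362), with signals of 943 and 1608 in replicates 1 and 2, or 13.9 ± 0.057 times. These 2 peaks repeated closely between the libraries once each was scaled to its own median. The quartiles over near intronic peaks were 0.711 and 1.67 times, against 0.716 and 1.69 times over the whole set.

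Genes for DNA-binding and chromatin proteins were among the strongest near intronic peaks. Adf1, a MADF-domain transcription factor (2R, summit 6663061), reached 13.04 ± 0.48 times the median peak, with signals of 906 in replicate 1 and 1474 in replicate 2. HmgZ, an HMG-box chromatin protein (2R, summit 21703387), reached 12.1 ± 0.24 times, and its peak lay 557 bp upstream of that TSS, inside the bodies of both HmgD and HmgZ. Trl, the gene for GAGA factor, which opens chromatin at GAGAG sequences (3L, summit 14759501), gave signals of 668 (replicate 1) and 1569 (replicate 2), or 11.7 ± 2.59 times. That was the widest spread between replicates among the 12 strongest. CHES-1-like, a forkhead-type gene (X, summit 7706996), stood at 7.98 ± 0.94 times, with signals of 495 and 1004 in replicates 1 and 2.

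Enzymes, a transporter and little-known genes made up the rest of the 12 strongest. Tlk, the tousled-like kinase (X, summit 3742214), gave signals of 793 (replicate 1) and 1516 (replicate 2), or 12.4 ± 0.96 times the median peak. The norpA gene, which encodes the phospholipase C of phototransduction (X, summit 4324984), had signals of 717 and 1250 in replicates 1 and 2, or 10.7 ± 0.13 times. CG3726 (X, summit 5918914) stood at 11.3 ± 0.24 times and CG9837 (3R, summit 8811676) at 10.004 ± 0.11 times. CG9663, a predicted ABC transporter gene, had 2 near intronic summits 202 bp apart (2L, summits 3302185 and 3302387), with pooled signals of 2580 and 859. Both overlapped the same peak in each replicate (signals of 873 and 1511), so the value of 13.0 ± 0.083 times belongs to the pair. In all, 81 near intronic peaks shared a peak of a replicate with another replicated peak in this way.

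Of the near intronic peaks, 674 (62.2%, exact 95% binomial interval 59.2 to 65.1%) were held by the own thresholded sets of both replicates, against 63% of all replicated peaks. Such intervals cover counting error only. The own set of replicate 1 held 710 (65.5%, against 67.2% of all replicated peaks) and that of replicate 2 held 961 (88.7%, against 88.2%). These shares were close to those of the whole set. A further 287 (26.5%, against 25.2% of all replicated peaks) were held by the set of replicate 2 and not by that of replicate 1. The other way round were 36 (3.32%, against 4.19%), and 87 (8.03%, against 7.57%) were held by neither. These too were near the shares of the whole set. Both own sets held 67.4% of TSS peaks, 51.5% of deep intronic peaks beyond 5 kb and 57.8% of intergenic peaks. The near intronic share was 93.8% in the stronger 50% of the replicated set and 41.2% in the larger optimal set of the series.

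**Figure D1:**
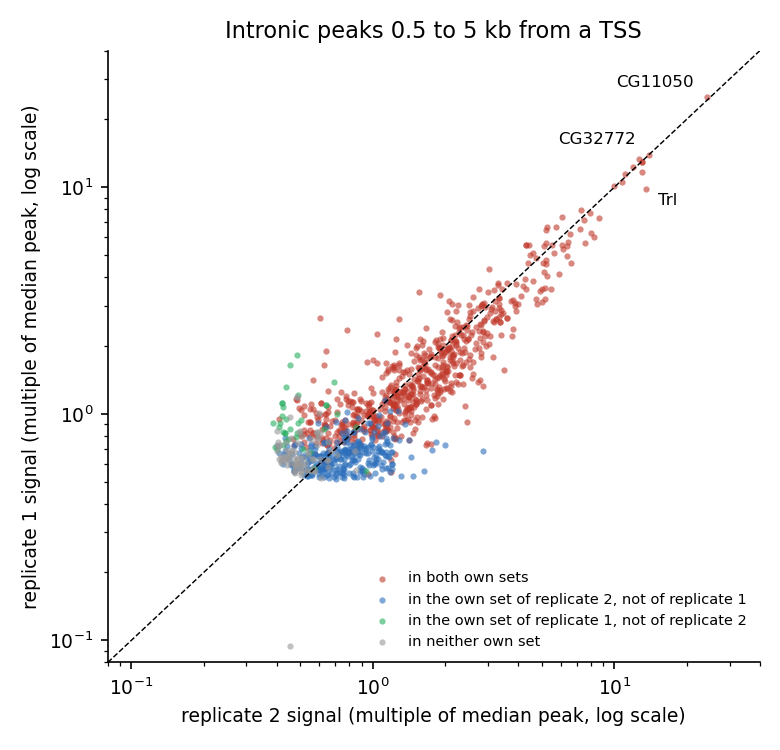
Signal of the 1077 near intronic peaks found in the ranked lists of both replicates, in replicate 1 (vertical) and replicate 2 (horizontal), each as a multiple of that replicate's median peak on log axes, with the dashed line at equal values and colours for the own sets that held the peak. The strongest peaks lie along the line up to CG11050 at 24.5 times, and peaks missing from the set of replicate 1 lie mostly below the median peak of that replicate.

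The median near intronic peak stood at 0.978 ± 0.065 times the median replicated peak (SD of the replicates' medians, n = 2), with 0.962 in replicate 1 and 1.05 in replicate 2. TSS peaks had a median of 1.07 times, intergenic peaks 0.904 times and deep intronic peaks 0.864 times. The gap to TSS peaks was not stable, since TSS peaks stood at 1.11 times in replicate 1 and 1.03 times in replicate 2, above near intronic peaks in replicate 1 and below them in replicate 2. Above 5 times the median peak were 35 near intronic peaks (3.25%), close to the 3.33% of all replicated peaks. Over the 1077 peaks in both ranked lists, the replicates correlated with Spearman's rho at 0.787 and Pearson's r, on log2 signals, at 0.870. These describe peaks that were selected for agreement and are not independent. The SD of the log2 ratio between replicates was 0.50.

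Near intronic peaks were denser the closer they lay to the gene start. The intron space that meets the same location limits, called the eligible intron space, was 22.1 Mb and held 49.1 near intronic peaks per Mb. Sequence within 500 bp of a TSS held 164 peaks per Mb, introns beyond 5 kb 16.4 per Mb and intergenic sequence 15.03 per Mb. Within the eligible space, density was 85.2 per Mb between 500 and 1000 bp from the TSS, 56.7 between 1000 and 2000 bp, 34.5 between 2000 and 3000 bp, 33.3 between 3000 and 4000 bp and 32.1 between 4000 and 5000 bp. The own set of replicate 1 gave 62.4, 41.3, 25.2, 22.8 and 19.9 per Mb in these 5 bins, and that of replicate 2 gave 114.7, 77.0, 49.9, 44.6 and 43.5. Both libraries thus had the same order of bins, at levels that differed between libraries in every bin. The median distance to the TSS was 1502 bp.

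**Figure D2:**
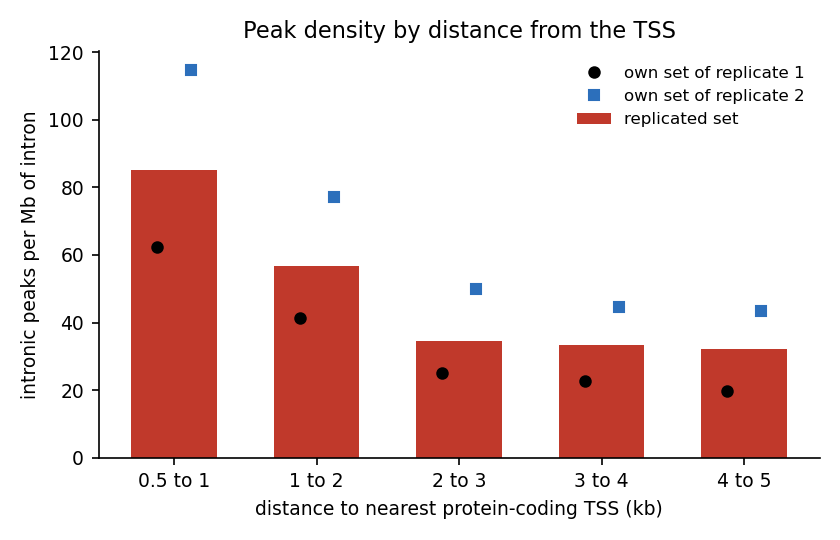
Near intronic peaks per Mb of eligible intron (vertical) by distance to the nearest protein-coding TSS in kb (horizontal), with bars for the replicated set and points for the own set of each replicate. Density is highest, at 85.2 per Mb, in the bin next to the limit of 0.5 kb and levels off at 32.1 to 34.5 per Mb beyond 2 kb.

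At the limits of the rule, the summits just inside 500 bp were in shep and CG14434 (both 502 bp, at 0.878 ± 0.62 and 0.700 ± 0.16 times the median peak). Those just outside it were in Sec13 (497 bp, 1.84 ± 0.47 times) and rogdi (495 bp, 0.906 ± 0.30 times). The summits just inside 5000 bp were in Pdk and Pde11 (both 4989 bp, at 0.832 ± 0.0048 and 1.86 ± 0.71 times), and those just outside were in tara (5019 bp, 1.04 ± 0.23 times) and NetB (5020 bp, 0.602 ± 0.0080 times).

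First introns held most near intronic peaks. The summit of 858 (79.2%, 76.6 to 81.5%) lay in the first intron of at least 1 transcript of its host gene, against 59.3% of the bases of the eligible intron space. The own sets gave 79.7% in replicate 1 and 78.0% in replicate 2. First introns lie nearer to gene starts, and by distance bin the share of peaks in one was 86.3% at 500 to 1000 bp and 58.1% at 4000 to 5000 bp. The nearest gene was also the host in 959 cases (88.5%), and 8 summits lay in no protein-coding body. Position on either side of the nearest TSS matched the space available, with 728 peaks (67.2%) downstream and 67.8% of eligible bases there. Introns of 10 kb or more held 33.2% of the peaks and 36.3% of the eligible bases.

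Arm X had the highest density, with 272 near intronic peaks or 60.1 per Mb of eligible intron. The other large arms had 43.99 (2L), 45.2 (2R), 50.3 (3L) and 48.2 (3R) per Mb, and chromosomes 4 and Y had 0 peaks. X also ranked first in each own set, at 42.2 per Mb in replicate 1 and 74.3 per Mb in replicate 2. The gap to the other arms was smaller in replicate 2, where 3L had 70.7 per Mb.

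Near intronic peaks often had another peak close by. The next replicated summit was at a median of 1838.5 bp, against 3568 bp for TSS peaks, 5478 bp for deep intronic peaks and 3304.5 bp for intergenic peaks. For 341 near intronic peaks (31.5%) it lay within 1000 bp, against 25.2% of all replicated peaks. The share was 24.4% for TSS peaks, 16.2% for deep intronic peaks and 26.4% for intergenic peaks. The rule keeps near intronic peaks close to gene starts, where peaks were dense, and the part of this in the spacing was not tested. The near intronic peaks fell at 750 genes, 7.19% of the 10432 protein-coding genes with any eligible intron. Of these, 548 had 1 near intronic peak, and 202 had more and together held 536 of the peaks.

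CHES-1-like had 14 near intronic peaks, with 12 in the own set of replicate 1 and 14 in that of replicate 2, in 14663 bp of eligible intron. Its 14 peaks ranged up to the 7.98 times given above. Tlk had 7, with 6 and 11 in the own sets of replicates 1 and 2, and shn, a zinc-finger factor of Dpp signalling, had 7, with 6 and 12. CG32264 and CG3764 also had 7 each, and atos had 6, with 3 in the own set of replicate 1 and 6 in that of replicate 2. Tlk, shn and CG32264 each had over 30 kb of eligible intron, more than CHES-1-like. The peaks of shn reached 4.20 times the median peak and those of CG3764 2.00 times. All 6 genes also had a replicated peak at their own TSS.

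Genes with a peak at their own TSS had near intronic peaks more often. Of the 750 genes with a near intronic peak, 388 (51.7%, 48.1 to 55.4%) had a TSS peak, against 25.9% of all genes with eligible intron. Eligible length differed between genes, with a median of 4500 bp for genes with a near intronic peak and 631.5 bp for all, so genes were split into 4 groups of 2608 by that length. In the group with the longest eligible intron, 275 of 692 genes with a TSS peak (39.7%, 36.1 to 43.5%) had a near intronic peak, against 246 of 1916 without one (12.8%, 11.4 to 14.4%). The own sets gave 34.8% with a TSS peak and 11.0% without in replicate 1, and 42.6% and 15.6% in replicate 2. In the group below it the shares were 14.8% with a TSS peak and 5.18% without. Viewed by peak, the nearest gene had a TSS peak for 619 near intronic peaks (57.1%), against 36.5% of deep intronic and 32.8% of intergenic peaks. This share was 45.9% in the own set of replicate 1 and 63.0% in that of replicate 2. It was 34.7% in the stronger 50% of the replicated set, where TSS peaks too came from the smaller set.

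**Figure D3:**
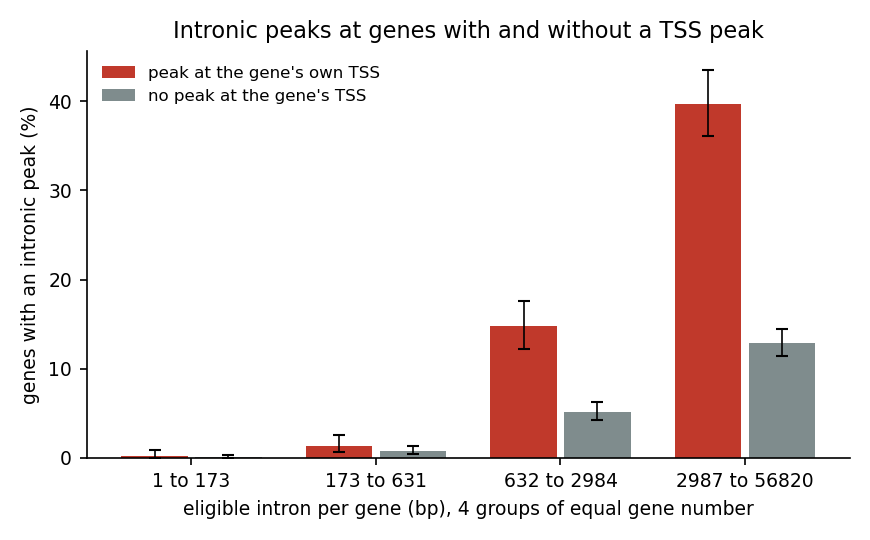
Share of genes with at least 1 near intronic peak (vertical, %) in 4 groups of 2608 genes by length of eligible intron (horizontal, bp), for genes with a peak at their own TSS (red) and without one (grey), with exact 95% binomial intervals. In the longest group the shares are 39.7% with a TSS peak and 12.8% without.

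Signalling and regulatory genes of several kinds had near intronic peaks. The lists below have longer introns than most genes, so their counts stand beside the 7.19% of all genes with eligible intron and the 19.98% of the longest group, whose median eligible length was 4512.5 bp. No list was tested, and the lists were chosen with earlier results of these data known, so their shares are a description only. The lists do not hold every gene of their kind, so genes outside a list can have stronger peaks than those named. Stress and immediate response genes had a near intronic peak in 9 of 17 cases (52.9%; 7 in the own set of replicate 1 and 10 in that of replicate 2), with a median eligible length of 4142 bp. Hsp83, the fly Hsp90 chaperone (3L, summit 3194287), gave signals of 206 (replicate 1) and 386 (replicate 2), or 3.18 ± 0.20 times the median peak. REPTOR, a transcription factor held back by TORC1 (3R, summit 24567574), stood at 2.28 ± 0.0021 times. Both were held by both own sets.

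Among actin and cytoskeleton regulators, 11 of 24 had a near intronic peak (45.8%; 7 and 12 in the own sets of replicates 1 and 2). Moe, which encodes moesin, a linker of actin to the membrane (X, summit 8896278), had signals of 377 and 641 in replicates 1 and 2, or 5.54 ± 0.035 times the median peak. The gene tsr, which encodes cofilin (2R, summit 24045357), stood at 4.51 ± 1.37 times. Tracheal and epithelial polarity genes had 7 of 17 (41.2%; 7 and 9 in the own sets of replicates 1 and 2), led by the scaffold gene dlg1 (2.17 ± 0.50 times) and by crb, an apical determinant (1.56 ± 0.57 times). Kinases, phosphatases and second messenger genes had 10 of 27 (37.0%), but the own sets differed here, with 6 in replicate 1 and 14 in replicate 2. After Tlk the strongest of that list was Hipk, a homeodomain-interacting kinase (3L, summit 547248), at 4.77 ± 0.39 times. Kinase genes outside the list had stronger peaks than Hipk, among them for (7.14 ± 1.18 times), Csk (6.73 ± 0.93 times), Mekk1 (6.36 ± 0.24 times) and Btk (5.62 ± 1.41 times).

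Developmental regulators covered a wide range of shares. Ecdysone response genes had 7 of 18 (38.9%; 5 and 8 in the own sets of replicates 1 and 2), on a median eligible length of 10776.5 bp, with the cyclin-dependent kinase gene Eip63E at 2.83 ± 0.15 times and ImpL2, an insulin-binding protein, at 1.72 ± 0.55 times. Neuronal transcription and RNA-binding factors had 8 of 26 (30.8%; 7 and 8), on a median eligible length of 9629.5 bp. Among them, the KH-domain gene mub (3L, summit 21880505) stood at 5.86 ± 0.91 times. The gene brat, a translational repressor of neural stem cell growth (2L, summit 19165166), stood at 5.67 ± 0.99 times. Mesoderm and muscle genes had 7 of 31 (22.6%; 7 and 8), led by the nuclear anchor gene Msp300 (5.02 ± 1.25 times) and by sr, the tendon cell factor stripe (3.68 ± 0.13 times). Developmental signalling genes had 7 of 32 (21.9%; 5 and 9). The strongest in the list were aos, a secreted antagonist of the EGF receptor pathway (3.01 ± 0.47 times), and the ETS repressor aop (2.39 ± 0.21 times). Raf and sty, genes of that pathway outside the list, reached 4.90 and 2.54 times. Glial genes had 3 of 15 (2 and 3), with glutamine synthetase Gs2 at 2.58 ± 0.40 times and the sodium pump subunit nrv2 at 1.39 ± 0.053 times.

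Axon guidance and adhesion genes had 5 of 32 (15.6%; 4 and 6 in the own sets of replicates 1 and 2), with the ligand gene sli at 1.49 ± 0.083 times and the receptor phosphatase gene Ptp10D at 1.39 ± 0.092 times. Polycomb, Trithorax and insulator genes had 3 of 21 (14.3%; 3 and 5), led by Trl and then by ph-p, a Polycomb repressive complex gene, at 2.00 ± 0.14 times. Their median eligible length was only 875 bp. Of the homeobox genes in the list, 2 of 37 had a near intronic peak (5.41%; 1 and 4), on a median eligible length of 4063 bp. These 2 were the posterior Hox gene Abd-B, with 5 near intronic peaks of which the strongest reached 1.03 ± 0.100 times the median peak, and CG32532. Homeobox genes outside this list also had near intronic peaks. NK7.1 had 2, up to 1.86 times, and zfh1, listed under mesoderm and muscle, reached 3.53 ± 0.68 times.

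The peak in CG32532 itself was weak. It lay 538 bp downstream of the TSS (X, summit 19546944), with signals of 44.7 in replicate 1 and 89.6 in replicate 2, or 0.716 ± 0.079 times the median peak, and ranked 802 among the near intronic peaks. The own set of replicate 2 held it and that of replicate 1 did not.

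The share of near intronic summits with the homeodomain core was close to that of the intron space around them, and lower than it in most bins of matched G+C. Windows of 200 bp centred on summits were set beside 107979 adjacent windows of the same width in the eligible intron space outside replicated peaks. Motifs were read on both strands. The core TAATTA was in 174 near intronic windows (16.1%, 13.9 to 18.4%), against 15.03% of eligible windows, and in 16.1% and 16.7% of windows in the own sets of replicates 1 and 2. A pair of inverted cores, TAAT and ATTA with 3 bases between them, was in 40 (3.69%, 2.65 to 4.99%), against 1.91% of eligible windows, and in 3.23% and 3.11% of windows in the own sets of replicates 1 and 2. The same pair with 2 bases between was in 24 (2.21%, 1.42 to 3.28%), against 1.43%. Either dimer form can contain TAATTA.

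Near intronic windows were poorer in G+C than eligible windows (37.1% against 39.97% over 200 bp), and these motifs hold only A and T at their fixed letters, so shares were also compared within 6 bins of G+C. The core TAATTA was less frequent in near intronic than in eligible windows in 5 of the 6 bins, from 25% against 28.8% at 20 to 30% G+C to 4.08% against 9.39% at 45 to 50%. It was more frequent in 1 bin, at 30 to 35% G+C, with 23.5% against 20.8%. Over the 1080 near intronic windows in these bins the share was 16.1%, against 17.6% of eligible windows weighted to the same G+C, so the direction turned round. The pair with 3 bases between was in 3.70%, against 2.40% of weighted eligible windows, and was more frequent in 5 of the 6 bins. Most of that gap came from 30 to 35% G+C, with 7.17% against 2.96%. The pair with 2 bases between was in 2.22%, against 1.87%. The weighting, and the bins for both pairs, were added after the data were seen. The pair with 3 bases between was in 0.965% of deep intronic, 2.24% of intergenic and 2.68% of TSS windows.

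Promoter-type sequences were rare. TATCGATA, the core of the site of the promoter factor DREF, was in 3 near intronic windows (0.277%, 0.0571 to 0.807%), against 7.74% of TSS windows and 0.430% of eligible windows. GGTCACACT, a core promoter motif, was in 2 (0.185%), against 3.38% of TSS windows and 0.0796% of eligible windows. The E-box CAGCTG was in 7.38%, against 11.96% of TSS windows and 7.41% of eligible windows. GAGAG was in 23.9% (21.4 to 26.5%), against 20.6% of eligible windows and 18.2% of those weighted to the same G+C, and the Zelda core CAGGTA was in 4.70%, against 4.34%. TGANTCA, read by AP-1, was in 5.63% against 5.16% of eligible windows, CACACA in 17.3% against 17.1%, GTTAC in 21.1% against 18.6%, and TTTATGG in 4.70% against 6.44%. A match is a stretch of letters and not a site, and none of these shares says where the protein binds.

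G+C content dropped sharply at the summit. The 50 bp on the summit had 34.6% G+C on average over near intronic peaks, against 39.2% in eligible windows, 38.3% in TSS peaks, 35.7% in deep intronic peaks and 36.9% in intergenic peaks. The own sets gave 34.6% in replicate 1 and 35.1% in replicate 2. Within 20 bp of the summit G+C was 34.3%, and between 120 and 200 bp away it was 42.8%, above the mean of eligible windows. Both own sets had the same dip, with 34.4% and 42.6% in replicate 1 and 34.8% and 42.7% in replicate 2. Sequencing libraries can favour fragments by their G+C content, and the part of this in the dip was not tested.

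**Figure D4:**
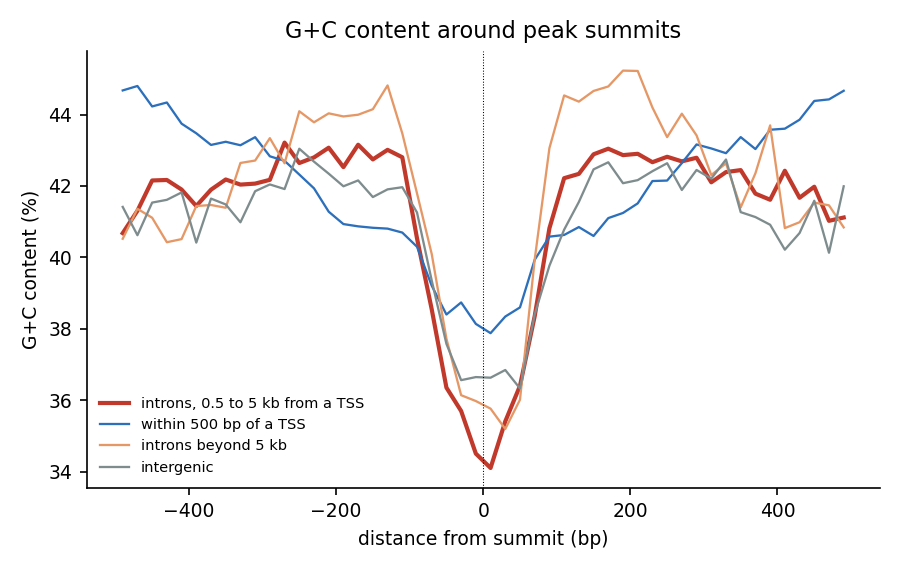
Mean G+C content (vertical, %) in 20-bp bins by distance from the summit (horizontal, bp) for near intronic peaks (thick red line), TSS peaks, deep intronic peaks and intergenic peaks. Near intronic peaks fall to 34.3% within 20 bp of the summit between flanks of 42.8%. The other classes also fall at the summit.

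Stronger near intronic peaks had lower G+C at the summit. Ranked by mean signal into 4 groups of 269 or 270 peaks, G+C over 50 bp was 30.6% in the strongest group, 32.7% and 35.6% in the next 2 and 39.4% in the weakest. Ranking by replicate 1 alone gave 31.8% in the strongest and 36.6% in the weakest group of 270, and by replicate 2 alone 30.3% and 41.5%. The median and the upper quartile of near intronic peak width were both 360 bp. Peaks of this width included those in CG32532 (19546764 to 19547123, summit 19546944) and shn (11202921 to 11203280, summit 11203101), each with its summit at the centre. The strongest peak, in CG11050 (6612500 to 6612979, summit 6612710), had its summit off the centre. The part of such centred summits in the order of G+C was not tested. The own sets were thresholded from the same replicates whose signals ranked the peaks, so a fall in the share held with signal is largely built in. The share held by both own sets was 99.6% in the strongest group, 92.9% and 46.8% in the next 2 and 11.1% in the weakest. The core TAATTA showed no such order, with 16.4%, 18.6%, 15.2% and 13.7% from the strongest group to the weakest. GTTAC was in 26.0%, 23.05%, 17.1% and 18.9%.

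A group of overlapping words around ACTGT and CAGTG stood out among all 2080 6-letter words counted with their reverse complements. ACAGTG was in 278 near intronic windows (25.6%), against 7.18% of eligible windows, the largest ratio (3.57) among words in at least 5% of near intronic windows. The own sets gave 28.0% in replicate 1 and 21.9% in replicate 2. The next were ACTGTA (19.1% against 6.81%), CTGTAC (10.7% against 4.15%), ACACTG (17.5% against 6.87%), ACTGTG (18.3% against 7.44%) and CAGTGG (19.8% against 8.63%). These 6 words share letters, so 1 stretch can hold several, and 578 windows (53.3%) held at least 1 of them, against 28.5% of eligible windows. The words were picked by these shares, which are therefore a description.

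The word ACAGTG was not limited to near intronic peaks. It was in 20.3% of deep intronic, 16.9% of intergenic and 16.7% of TSS windows. Its share exceeded that of eligible windows in each of 6 bins of G+C content, from 11.8% against 4.98% at 20 to 30% G+C to 34.6% against 7.42% at 35 to 40% and 23.3% against 8.20% at 50 to 60%. Near intronic peaks with the word had a median signal of 1.1003 times the median peak, and those without it 0.955 times. By signal group, the word was in 29.4%, 27.5%, 24.2% and 21.9% of windows from the strongest to the weakest. The longer run CCACTGTGC, chosen after its values were seen, was in 50 near intronic windows (4.61%), against 0.355% of eligible windows, with 5.17% and 3.18% in the own sets of replicates 1 and 2. It was also in 3.67% of deep intronic, 2.71% of TSS and 1.72% of intergenic windows.

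The word lay beside the summit more often than under it. Near intronic peaks had 201 matches of ACAGTG between 60 and 100 bp from the summit (18.5 per 100 peaks), 78 within 40 bp (7.20 per 100) and 35 between 400 and 440 bp (3.23 per 100), in stretches of equal length. The own set of replicate 1 gave 19.8, 9.56 and 2.97 per 100, and that of replicate 2 gave 16.1, 5.95 and 3.38. The matches therefore flanked the stretch where G+C was lowest, at distances where it was rising. The word itself holds 3 bases of G or C in 6.

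**Figure D5:**
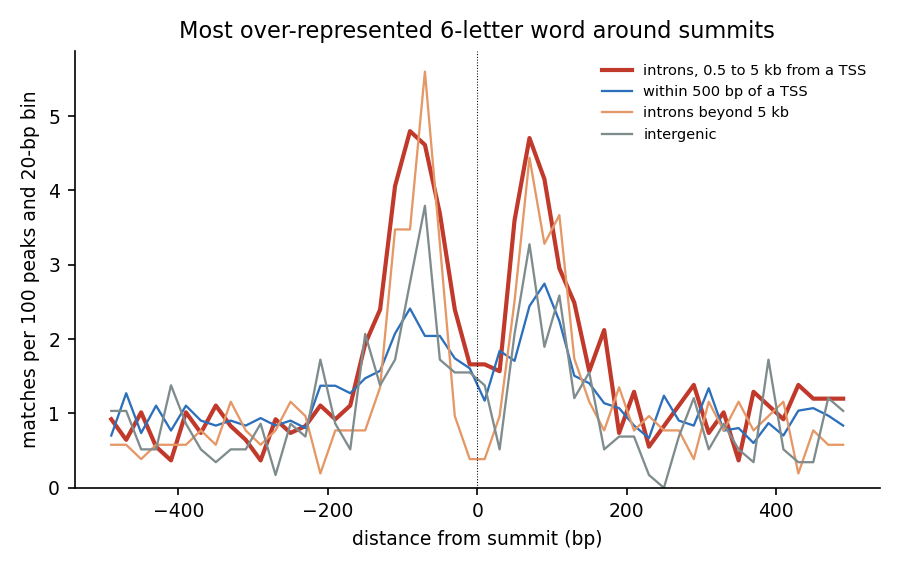
Matches of the 6-letter word with the largest ratio, counted on both strands, per 100 peaks in 20-bp bins (vertical) by distance from the summit (horizontal, bp), for near intronic peaks (thick red line), TSS peaks, deep intronic peaks and intergenic peaks. Near intronic peaks have a hump on each side, with 18.5 matches per 100 peaks between 60 and 100 bp away, and a trough at the summit. The other classes also have a hump on each side.

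The matches had a preferred direction. Between 40 and 120 bp from the summit, 150 of the matches on the left read ACAGTG on the plus strand and 37 read CACTGT, while on the right 31 read ACAGTG and 136 read CACTGT. In all 286 of 354 matches (80.8%, 76.3 to 84.8%) pointed this way, with 84.1% and 80.3% in the own sets of replicates 1 and 2. Left and right have no meaning in the genome, so a word without direction would be split evenly. Deep intronic peaks gave 80.5% (73.4 to 86.5%), intergenic peaks 73.9% (64.9 to 81.7%) and TSS peaks 71.5% (67.5 to 75.3%). A flanking match on either side was present at 269 near intronic peaks (24.8%), and 69 had one on both sides, of which 61 were in the inverted arrangement seen in NFAT. Their median spacing was 157 bp. A match on either side was present at 23.7% of deep intronic, 15.5% of intergenic and 15.5% of TSS peaks. A match on both sides was present at 6.37% of near intronic, 5.21% of deep intronic, 3.28% of intergenic and 1.61% of TSS peaks.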

How the data were processed

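Peaks were analysed from the deposited lists, on assembly dm6 per the labels. The aligner and peak caller were not given in the sources used here. Each deposited score is a scaled irreproducible discovery rate on which the authors thresholded each set. The deposited signal is the strength of a peak as the authors' caller gave it, on an unstated scale, so it was used only within a list or as a multiple of a median. The deposited summit offset, in bp from the start of the peak, gave the summit. Per the file notes, the authors made the lists of a replicate from that replicate only, and the conservative set, here the replicated set, carries values of both replicates pooled. Left unused were 16 unnamed columns of per-replicate values in the ranked lists of the whole series.

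Summits were classed with the Ensembl BDGP6 annotation without transposable elements, in coordinates that count from 1. A replicate's signal was that of its strongest peak overlapping a replicated peak by at least 1 bp. The own set of a replicate is its thresholded list. Sequence came from RefSeq's copy of dm6. Shares have exact Clopper-Pearson 95% intervals, and no p-value was computed, because 2 replicates of 1 group allow no test between conditions and peaks are not replicates. Counting code was tested on simulated data (python 3.11.15, numpy 2.4.6, pandas 2.3.3, scipy 1.17.1). Of 319 list symbols, 315 matched a gene. The location limits and gene lists were chosen with earlier results of these data known.

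Named were CG32532, the 12 strongest near intronic peaks, the 6 genes with most of them (ties by summed signal), the 2 genes per list with the strongest, and the 2 summits on each side of each distance limit. Alternatives were another peak set or threshold, each replicate alone, other distance limits, windows, overlaps and scaling, protein-coding annotation only, and the midpoint in place of the summit.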

Additional observations from a re-analysis of the deposited data

How the results depend on the processing

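In the stronger 50% of the replicated set there were 544 near intronic peaks (24.6 per Mb), of which 93.8% were held by both own sets, with a median signal of 1.65 times the median peak, TAATTA in 17.6% of windows, 31.4% summit G+C, 34.7% with a TSS peak at the nearest gene and 80.9% in a first intron. Peaks held by both own sets numbered 674, with a median of 1.43 times, 33.1% G+C and 41.5% with a TSS peak. In both of these settings TSS peaks were drawn from the same reduced set. The optimal set gave 1636 (74.1 per Mb), 41.2% held by both own sets, a median of 0.754 times, TAATTA in 15.3%, 36.5% G+C and 77.8% in a first intron. Summits beyond 1000 bp had TAATTA in 17.6% and a first-intron share of 76.2%, and those within 2500 bp had 16.8% and 83.4%. With 50% of the peak covered, 51.8% were held by both own sets. TAATTA was in 10.4% of 100-bp and 26.3% of 400-bp windows, and G+C over 200 bp was 37.1%.

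With each replicate left out in turn, the number ranged from 774 to 1480, the density from 35.05 to 67.0 per Mb, the median signal from 0.962 to 1.05 times, TAATTA from 16.1 to 16.7%, summit G+C from 34.6 to 35.1%, the share with a TSS peak at the nearest gene from 45.9 to 63.0% and the first-intron share from 78.0 to 79.7%. Matching each replicated peak to the overlapping peak with the nearest summit, chosen after seeing the data, gave a median of 0.972 times. The midpoint in place of the summit gave 1082 peaks, and protein-coding annotation alone 1113.

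No paired analysis was possible because the series has 1 group. The lists give no read counts, so no depth or limit of detection is stated. With 2 replicates an SD rests on 2 values. Chance was not tested for any share.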
